A study of Mus musculus with 21 samples.

Results

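The sites described here are stretches of the mouse genome at which the vitamin D receptor (VDR) gave a ChIP-seq peak in the small intestinal (SI) villus and in the colon, with no peak in the SI crypt. They were selected on the pooled peak lists, 1 list for each compartment, as SI villus peaks that shared at least 1 bp with a colon peak and none with an SI crypt peak. This rule found 2809 of the 18078 SI villus peaks, or 15.5%. The other SI villus peaks fell into 5702 sites found in all 3 compartments (3-compartment sites), 2610 sites with an SI crypt peak but no colon peak (crypt-and-villus sites) and 6957 sites found in SI villus alone (villus-only sites).

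VDR is a nuclear receptor that binds DNA as a dimer with the retinoid X receptor once it has bound 1,25(OH)2D3, the active hormone of vitamin D. The dimer recognizes DR3, a direct repeat of hexamers such as AGGTCA or GGTTCA separated by 3 bases. In the intestine VDR is best known for the genes of calcium absorption, and it also acts on barrier and growth genes. Cells divide in the crypt and differentiate as they move onto the villus of the small intestine or the surface of the colon, where there are no villi.

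VDR ChIP-seq was done in C57BL/6J mice aged 4 to 6 weeks by the labels (older by the study's methods), each given 10 ng/g 1,25(OH)2D3 for 1 h, with 4 samples each of SI villus, colon and SI crypt. No vehicle group and no input library were analysed here, so every VDR value is from treated mice. ATAC-seq, which marks open chromatin, was done in 3 samples each of the same compartments from C57BL/6J mice aged 90 days. The study's text describes these as on a standard diet and their intestine as untreated, whereas the labels carry 1 protocol for all samples, which includes the 1,25(OH)2D3. SI villus and SI crypt were separated fractions of the proximal small intestine, whereas the colon was a scraping of the whole mucosa, with its own crypts included. The study's methods state that colon, crypts and villi were taken from a shared group of mice. The labels do not say which samples share a mouse.

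The VDR ChIP-seq samples held 10588783 to 17970894 fragments and gave 1138 to 13382 peaks, and the ATAC-seq samples held 32767083 to 62692175 tags and gave 21271 to 57827 peaks. After duplicates were removed, the pooled lists rested on 34583701 fragments in SI villus, 46166439 in colon and 25325174 in SI crypt. The SI crypt list, whose absence defines the sites, thus rested on the fewest. One library stood apart: SI crypt sample 1 kept the fewest fragments (3100376) and gave the most peaks (13382). The part of depth in the choice of the sites was not tested.

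Several of the sites held an exact DR3 (each hexamer AGGTCA or GGGTCA or AGTTCA or GGTTCA, on either strand) within the 200 bp centred on the SI villus summit. They are printed here because DR3 is the sequence by which the VDR dimer binds DNA, with the 15 letters of the match in capitals and 20 bases on either side, on the plus strand of mm9. They are the matches near Crebl2, Insig2, Sparc, Inpp5j, Klf3 and Ezr.
Crebl2, chr6:134773296-134773350: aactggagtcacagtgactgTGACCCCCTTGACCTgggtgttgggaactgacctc
Insig2, chr1:123227014-123227068: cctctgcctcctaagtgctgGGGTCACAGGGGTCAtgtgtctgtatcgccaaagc
Sparc, chr11:55219496-55219550: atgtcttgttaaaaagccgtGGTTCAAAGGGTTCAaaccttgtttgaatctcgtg
Inpp5j, chr11:3400254-3400308: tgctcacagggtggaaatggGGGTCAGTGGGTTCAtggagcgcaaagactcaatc
Klf3, chr5:65186374-65186428: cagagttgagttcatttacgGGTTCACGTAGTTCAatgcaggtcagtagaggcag
Ezr, chr17:6980332-6980386: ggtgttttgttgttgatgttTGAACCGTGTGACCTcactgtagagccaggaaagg
The matches at Crebl2 and Ezr lie on the minus strand and read AGGTCAAGGGGGTCA and AGGTCACACGGTTCA from 5′ to 3′. The motif centre was 5 bp from the SI villus summit at Crebl2 and 1 bp from it at Sparc and at Klf3.

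The site with the highest colon value among these was 6.85 kb upstream of Crebl2, a gene for a small leucine zipper protein. Its pooled -log10 q, the peak caller's confidence that a peak exceeds the local background, was 13.3 in SI villus and 107 in colon. One of 4 SI villus samples called it, with a -log10 q of 4.28, as did all 4 colon samples, with 5.11, 29.7, 26.5 and 44.5. No SI crypt sample called it. In open chromatin it overlapped an ATAC-seq peak of 2 colon samples and none of SI villus or SI crypt.

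The DR3 of Sparc, which codes for a collagen-binding matrix protein, was in an intron 14.1 kb from the start, with a pooled -log10 q of 14.5 in SI villus and 37.0 in colon. Single samples gave 7.35 and 3.72 in SI villus and 16.4, 12.4 and 7.19 in colon, with none in SI crypt.

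Insig2 codes for a protein of the endoplasmic reticulum that restrains sterol synthesis. Its site was in an intron 2.14 kb from the start, with a pooled -log10 q of 18.3 in SI villus and 24.4 in colon. One SI villus sample (8.28), 1 colon sample (20.4) and also 1 SI crypt sample (10.1) called it. The site of Klf3, a zinc finger repressor, was 8.23 kb upstream and was stronger in SI villus (23.4) than in colon (7.91), with 1 SI villus sample (10.4) and 1 colon sample (4.17) calling it. The site of Ezr, which codes for ezrin, a linker of microvillus membrane and actin, had 6.68 in SI villus and 13.3 in colon. It was called in 2 colon samples (2.73 and 8.57), in no SI villus sample and in 1 SI crypt sample (11.4). None of these 3 sites was called in more than 2 samples of any compartment. The other leading DR3 sites were near Mrps28, Elovl6, Aktip, Rps12-ps2 and Sucnr1, with 10.8 to 19.2 in SI villus and 10.8 to 31.8 in colon. Of these, the site near Mrps28 alone was called in an SI crypt sample (7.18).

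Since the pooled VDR lists chose the sites, their VDR values are given as a description only. The median -log10 q of the 2809 sites was 5.82 in SI villus (1.38 to 122, quartiles 3.89 and 9.37) and 6.43 in colon (1.31 to 119, quartiles 4.17 and 10.99). In the same SI villus list the median was 14.5 at 3-compartment sites, 6.32 at crypt-and-villus sites and 4.10 at villus-only sites. The median fold enrichment over the local background was 3.61 in SI villus and 3.29 in colon, and the median width was 345 bp and 337 bp. The value was higher in SI villus at 1259 sites and higher in colon at 1550. The summits of the SI villus and colon peaks lay a median of 70.0 bp apart, and within 50 bp of each other at 1138 sites. In both lists 1255 sites had a -log10 q of 5 or more and 58 had 20 or more.

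At the limit of the rule, the gap to the nearest SI crypt peak was 8 bp at a site near Acadl, which had a -log10 q of 4.83 in SI villus and 6.92 in colon. A peak near Grlf1 that overlapped an SI crypt peak by 1 bp was not a member, with 3.20 in SI villus, 4.44 in colon and 3.58 in SI crypt. Within 100 bp of an SI crypt peak there were 38 sites, and 50 of the 3-compartment sites overlapped one by 50 bp or less. The median distance to the nearest SI crypt peak was 16.6 kb. The lists use intervals that the authors moved onto the summits and filtered. Against the SI crypt peaks as first called, before they were moved and filtered, 30 sites overlapped one.

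The single samples bear on the name of the sites. SI villus samples 1 to 4 called 24.9%, 17.1%, 1.07% and 10.6% of the sites, colon samples 1 to 4 called 3.63%, 15.1%, 18.9% and 36.7%, and SI crypt samples 1 to 4 called 15.8%, 1.21%, 0.0356% and 0.392%. SI crypt sample 1 thus called more of the sites than 4 of the 8 SI villus and colon samples, whereas the other 3 SI crypt samples called few. Of all SI villus peaks, SI villus samples 1 to 4 called 37.6%, 25.0%, 6.58% and 19.3%. Colon samples 1 to 4 called 5.64%, 15.2%, 18.9% and 27.0% of them, and SI crypt samples 1 to 4 called 37.1%, 8.84%, 5.01% and 10.7%. At least 1 SI crypt sample called 485 sites, or 17.3%, against 42.0% of all SI villus peaks, and at 441 of them SI crypt sample 1 was the only one. Without the 485 sites, 2324 remained. The pooled SI crypt list, from which the 441 sites are missing, itself includes sample 1.

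Support from replicates was thin, and not only at these sites. No SI villus sample called 59.0% of the sites, against 49.6% of all SI villus peaks. This share was 21.4% at 3-compartment, 40.0% at crypt-and-villus and 72.5% at villus-only sites. No colon sample called 50.1% of the sites, against 23.3% of 3-compartment sites. No SI villus or colon sample called 942 of the sites (33.5%), and no sample of any compartment called 807 (28.7%). At least 1 SI villus and 1 colon sample called 686 sites (24.4%), and 519 of these had no SI crypt call. At least 2 of each called 92, of which 61 had no SI crypt call. One site was called in at least 3 SI villus and 3 colon samples and in no SI crypt sample. It lay on chromosome 17, 46.1 kb upstream of Gm9880, with 11.8, 11.4 and 7.10 in SI villus samples and 7.98, 4.27 and 9.96 in colon samples.

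**Figure D1:**
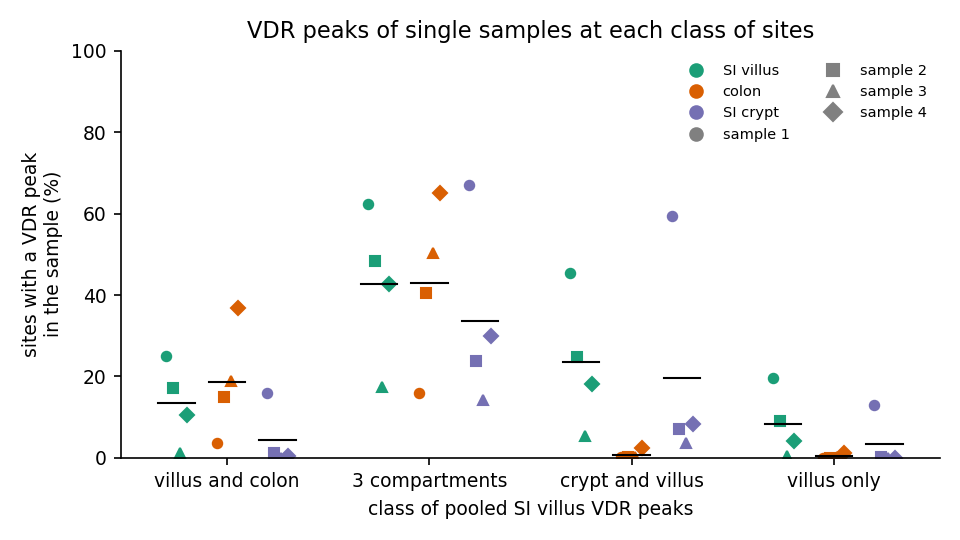
Percent of the sites of each class (x axis) with a VDR peak in each single ChIP-seq sample (y axis), in SI villus, colon and SI crypt; symbols are the 4 samples and black bars their mean. At the villus-and-colon sites SI crypt sample 1 lies at 15.8% and the other 3 SI crypt samples at 0.0356 to 1.21%.

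The strongest site in SI villus lay between genes on chromosome 14 (27944573 to 27945088), 92.6 kb from the start of Il17rd, which codes for a receptor related to the interleukin 17 receptors. Its pooled -log10 q was 122 in SI villus and 30.7 in colon. The SI villus samples gave 51.8, 58.5 and 12.9, with no peak in sample 3, and the colon samples gave 17.9 and 8.34, with no peak in samples 1 and 3. SI crypt sample 1 gave 14.9. The 2 highest values were thus both in SI villus. It held 2 AP-1 matches, 29 and 85 bp from the summit on the same side, and overlapped ATAC-seq peaks in all 3 SI villus, all 3 colon and 2 SI crypt samples.

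Other leading sites in SI villus lay among gene families whose copies are alike: 3 on the X chromosome near Vmn2r121 and Gm17267, from vomeronasal receptor and predicted gene families, and 1 on the Y chromosome near Gm3395. Reads from near-identical copies cannot be placed with certainty, so these values (60.2 to 81.5 in SI villus, 12.5 to 54.8 in colon) are uncertain. An intergenic site 636 kb from Epha7 had 61.9 in SI villus and 91.5 in colon and was in open chromatin in all 9 ATAC-seq samples. The promoter of Gna11, a G protein subunit, had 72.2 in SI villus and 34.9 in colon. Its calls were 36.4 and 46.2 in SI villus, 5.08 and 14.4 in colon and 17.1 and 18.1 in SI crypt samples. The remaining leading SI villus sites were near Rcc1 (67.2), Slitrk5 (60.7) and Aplp1 (60.4). At 8 of these 10 sites at least 1 SI crypt sample also called a peak.

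The leading colon sites were led by 1 at the promoter of Hist1h1e, a linker histone gene in a cluster of similar histone genes, with a -log10 q of 3.18 in SI villus and 119 in colon. No SI villus sample called it, and colon samples 2, 3 and 4 gave 4.88, 7.34 and 13.1. In an exon of Coq5, 4.59 kb from Dynll1, the value was 1.53 in SI villus and 106 in colon. Colon samples 2, 3 and 4 called this site with 38.7, 19.0 and 53.2, and no SI villus sample did. At the promoter of Apobec3, a cytidine deaminase, it was 2.64 in SI villus and 84.8 in colon, and no single sample called it. Sites near Nbr1 (12.8 in SI villus, 80.2 in colon), Cd7 (14.4 and 78.7), Il12b (6.42 and 75.6), B230120H23Rik (15.4 and 74.6) and Rgs3 (20.5 and 72.3) completed the list with Crebl2 and Epha7. Apart from the site of Apobec3, each was called in 3 or 4 colon samples and in at most 1 SI villus sample, and 2 of the 10 were called in an SI crypt sample. The colon peaks at Hist1h1e, Apobec3 and Dynll1 have their summits outside the SI villus interval, so those colon values were measured beside the sites. This was so at 530 of the 2809 sites (18.9%).

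An exact DR3 was found at 43 of the 2809 summits, or 1.53% (95% Wilson interval 1.14 to 2.06%), against 1.69% of all SI villus peaks. The share was 3.37% (2.93 to 3.87%) at 3-compartment sites, 1.53% (1.13 to 2.08%) at crypt-and-villus sites and 0.446% (0.314 to 0.632%) at villus-only sites. These intervals cover counting error only. In the 200 bp that lay 1 kb away from the same summits, no site held DR3. With 1 mismatch allowed the share was 8.47% (7.50 to 9.56%), against 1.14% in the flanks. The share differed with peak strength, and so did the gap between the classes. At an SI villus -log10 q below 3 it was 0.299% of 335 villus-and-colon sites (0.0527 to 1.67%) and 2.04% of 147 3-compartment sites (0.696 to 5.83%). From 3 to 5 it was 0.808% at villus-and-colon and 0.938% at 3-compartment sites, from 5 to 10 it was 1.39% and 1.68%, and from 10 to 20 it was 3.34% (2.07 to 5.36%) and 2.27% (1.61 to 3.21%). At 20 or more it was 2.86% of 175 villus-and-colon sites (1.23 to 6.51%) and 5.68% of 2287 3-compartment sites (4.81 to 6.71%). The intervals of the 2 classes overlapped in each of these ranges of strength. Of the 43 sites, 33 had the motif centre within 50 bp of the summit, 25 were intronic, 14 were intergenic and 1 was at a promoter.

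Sites with DR3 were less often in open chromatin than those without it. Of the 43 sites, 16.3% overlapped a pooled ATAC-seq peak of SI villus (7 sites, 8.12 to 30.0%), 9.30% of colon (4 sites, 3.68 to 21.6%) and 4.65% of SI crypt (2 sites, 1.28 to 15.5%). Of the 2766 sites without DR3 the shares were 65.0% (63.2 to 66.8%), 55.1% (53.2 to 56.9%) and 58.1% (56.2 to 59.9%). Because nearly no DR3 was at a promoter, the comparison was repeated outside promoters, where 16.7%, 9.52% and 4.76% of the 42 sites with DR3 were open, against 54.1%, 42.7% and 46.5% of 1938 without. In the 9 ATAC-seq samples, 2.33 to 9.30% of the sites with DR3 and 39.3 to 58.6% of those without it were open, so the ranges did not overlap. With 1 mismatch allowed, the ranges lay closer together (19.7 to 38.7% of 238 sites, against 40.4 to 59.6% of 2571). The median SI villus -log10 q was 8.61 at sites with DR3 and 5.76 at those without, and the part of peak strength in the open share was not tested. No test of the difference was run, since this comparison was chosen after its values were seen.

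**Figure D2:**
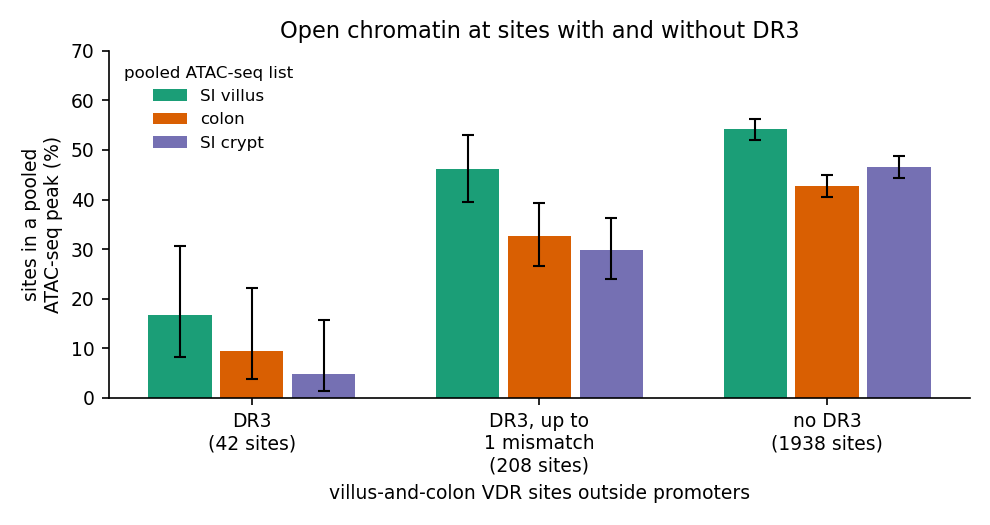
Percent of villus-and-colon sites outside promoters (y axis) in open chromatin by the pooled ATAC-seq lists of SI villus, colon and SI crypt, for sites with an exact DR3, with DR3 at up to 1 mismatch and without DR3 (x axis); error bars are 95% Wilson intervals. In each compartment the bar for sites with an exact DR3 (4.76 to 16.7%) is lower than that for sites without it (42.7 to 54.1%).

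The same order was seen at 3-compartment sites, where 38.0% of 192 sites with DR3 were open in SI villus, 23.4% in colon and 32.3% in SI crypt, against 75.7%, 66.1% and 73.5% of those without. The DR3 sites of Insig2, Inpp5j and Ezr overlapped no ATAC-seq peak in any of the 9 samples or 3 pooled lists. The DR3 site of Klf3 overlapped a peak of SI villus sample 1 alone (-log10 q 4.91). The DR3 site of Sparc overlapped a peak of 2 colon samples (4.82 and 9.89).

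AP-1 is the dimer of FOS and JUN proteins, which respond to growth factors and stress. Its motif, TGAGTCA or TGACTCA on either strand, was found at 203 summits, or 7.23% (6.33 to 8.24%). The share was 5.32% over all SI villus peaks, 5.59% (5.03 to 6.22%) at 3-compartment sites, 3.87% (3.20 to 4.68%) at crypt-and-villus sites and 4.87% (4.39 to 5.40%) at villus-only sites. The interval of the villus-and-colon sites lay above the other 3. Their flanks held it in 3.60%, also the highest, against 3.03% at 3-compartment, 2.84% at crypt-and-villus and 3.03% at villus-only sites. The ratio of summit to flank was 2.01 at villus-and-colon sites. It was 1.84 at 3-compartment, 1.36 at crypt-and-villus and 1.61 at villus-only sites. Of the sites with AP-1, 73.9% were open in SI villus, 58.6% in colon and 57.6% in SI crypt, and only 13.3% were at promoters. The sites near Il17rd and Rpia show the motif, given here in capitals, since Il17rd was the strongest site in SI villus and the site near Rpia was the only one called in all 4 SI villus samples.
Il17rd, chr14:27944837-27944883: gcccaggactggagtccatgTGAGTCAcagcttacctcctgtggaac
Rpia, chr6:70764653-70764699: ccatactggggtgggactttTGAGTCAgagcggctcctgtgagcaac
The site near Rpia, 22.5 kb upstream of this gene of the pentose phosphate pathway, had a -log10 q of 28.5 in SI villus and 26.3 in colon. The SI villus samples gave 8.14, 3.51, 3.69 and 12.6, colon samples 3 and 4 gave 9.03 and 7.80, and no SI crypt sample called it. Both the AP-1 windows and this site were chosen after their values were seen. So was a site 21.8 kb upstream of Epas1, which codes for the hypoxia factor HIF-2 alpha, with 38.5 in SI villus and 58.5 in colon. Its calls were 16.5 and 10.1 in SI villus samples and 10.8, 13.8 and 37.8 in colon samples, with none in SI crypt, and all 9 ATAC-seq samples were open there.

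Among GATA factors, GATA4 is made in most of the small intestine and not in the colon, whereas GATA6 is made in both. The GATA motif (AGATAAG or TGATAAG on either strand) was found at 2.92% of the villus-and-colon summits (2.36 to 3.61%), below its share in their flanks (4.49%) and in all SI villus peaks (4.00%). At crypt-and-villus sites, which lack a colon peak, it was found at 5.98% (5.13 to 6.95%), with 4.10% in the flanks. 3-compartment sites (3.82%, 3.36 to 4.35%) and villus-only sites (3.84%, 3.41 to 4.32%) lay between.

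The KLF motif (GGGCGTGG or GGGTGTGG), bound by Krüppel-like zinc finger factors, was found at 6.48% of the sites (5.63 to 7.45%) and 2.92% of their flanks. It was found at 6.79% of 3-compartment, 3.95% of crypt-and-villus and 4.15% of villus-only sites, against 5.32% of all SI villus peaks. The motif of HNF4A (caaagtcca), a nuclear receptor of enterocytes, was found at 1.07% of the sites (0.749 to 1.52%) and 0.249% of their flanks. It was found at 1.26% of 3-compartment sites (1.00 to 1.59%) and 0.307% of crypt-and-villus sites (0.155 to 0.604%), against 0.852% of all SI villus peaks. The CDX2 motif, of a homeobox factor of the intestine (GCAATAAA, GCCATAAA, GTAATAAA or GTCATAAA), had shares of 2.03% at the summits and 2.17% in the flanks, and of 1.69% of all SI villus peaks. Base composition differed between these windows, with a median GC content of 54.5% at summits and 46.0% in flanks, and its part in the shares was not tested.

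**Figure D3:**
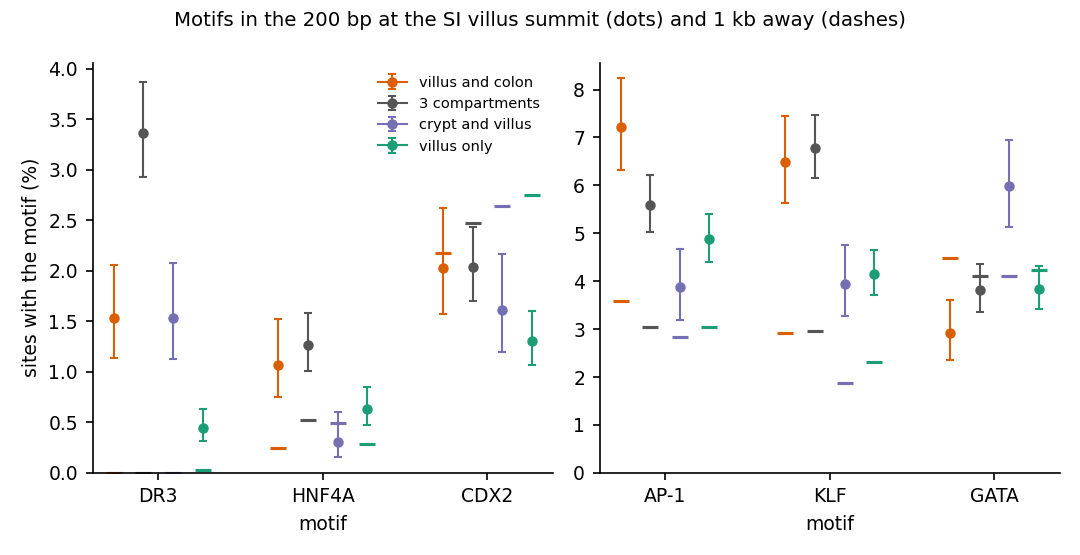
Percent of sites with each motif (y axis) in the 200 bp at the SI villus summit (dots with 95% Wilson intervals) and in the 200 bp that lie 1 kb away (dashes), for the 4 classes of SI villus peaks. Villus-and-colon sites have the highest share of AP-1 (7.23%) and the lowest share of GATA (2.92%) at the summit, and 1.53% of them hold DR3 against 3.37% of 3-compartment sites, without matching for peak strength.

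Open chromatin was measured in mice that the rule did not use. In single ATAC-seq samples, 57.8%, 55.0% and 40.2% of the sites overlapped a peak in SI villus, 38.7%, 44.8% and 48.8% in colon and 47.0%, 39.1% and 46.5% in SI crypt. The means were 51.0 ± 9.45% in SI villus, 44.1 ± 5.11% in colon and 44.2 ± 4.42% in SI crypt (SD, n = 3 each). The compartments overlapped, with SI villus sample 3 among the SI crypt values. SI villus and colon together exceeded SI crypt by 3.37 percentage points (exact permutation test, 6 against 3 samples, p = 0.524). This was 7.62 points with peak midpoints, 7.27 points with equal numbers of the strongest ATAC-seq peaks (exact permutation test, p = 0.0952) and, leaving out 1 sample at a time, between 0.819 points (without SI crypt sample 2) and 5.14 points (without colon sample 1). The difference was 6.82 points between SI villus and SI crypt, -0.083 points between colon and SI crypt and 6.91 points between SI villus and colon (exact permutation tests, p = 0.30, 1.0 and 0.30, and adjusted p = 0.45, 1.0 and 0.45 over the 3 pairs). With 3 samples against 3, p cannot be below 0.10. SI villus minus SI crypt was 3.42 points without SI villus sample 1, 4.27 without SI crypt sample 2 and 12.2 without SI villus sample 3. The number of ATAC-seq peaks differed between samples, and with equal numbers of the strongest peaks colon exceeded SI crypt by 9.47 points and SI villus minus colon was -4.40 points (exact permutation tests, adjusted p = 0.30 each).

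A lower share in SI crypt was thus not detectable with these samples. In the pooled ATAC-seq lists, 64.3% of the sites were open in SI villus (62.5 to 66.0%), 54.4% in colon (52.5 to 56.2%) and 57.2% in SI crypt (55.4 to 59.1%), against 56.3%, 43.0% and 50.0% of all SI villus peaks. In all 3 compartments 1310 sites were open (46.6%), in none 842 (30.0%), and in SI villus and colon but not SI crypt 131 (4.66%). The last share was 3.07% at 3-compartment sites.

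Within each sample the sites were compared with the other classes. They were open less often than 3-compartment sites in 9 of 9 samples, by 12.0 ± 2.06 points (SD, n = 9), and more often than crypt-and-villus sites by 14.4 ± 4.17 points and than villus-only sites by 22.7 ± 2.97 points, each in 9 of 9 samples. Each gave p = 0.00391 in an exact sign-flip permutation test, which is the smallest that 9 samples allow, and adjusted p = 0.00391 over the 3 classes. In the pooled ATAC-seq lists the gap to 3-compartment sites varied with peak strength. Below an SI villus -log10 q of 3, 47.5%, 40.9% and 44.8% of villus-and-colon sites were open in SI villus, colon and SI crypt. The shares of 3-compartment sites were 45.6%, 40.8% and 42.2%. From 10 to 20, 74.7% of either class were open in SI villus. The differences from the other classes kept their direction in each range of strength. Among peaks with an SI villus -log10 q of 3 to 10 the differences over samples were -11.4, 14.7 and 21.2 points. Away from promoters, more than 1 kb from any start site, they were -10.0, 16.5 and 21.1 points. With peak midpoints in place of 1 bp of overlap they were smaller, -8.34, 10.5 and 14.8 points. The median SI villus width was 345 bp at villus-and-colon, 501 bp at 3-compartment, 430 bp at crypt-and-villus and 312 bp at villus-only sites. The part of peak width was not tested. In a further comparison, villus-and-colon sites needed a call in at least 1 SI villus and 1 colon sample. The other classes needed only a call in at least 1 SI villus sample, so the filter was stricter for the villus-and-colon sites. The differences were then -6.06, 24.5 and 26.1 points.

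The gap to 3-compartment sites was -10.8, -9.80 and -11.4 points in SI villus samples and -11.3, -10.4 and -10.3 points in colon samples, against a wider -13.1, -14.9 and -15.5 points in SI crypt samples, and these values did not overlap. The difference of 3.82 points had p = 0.0238 (exact permutation test, 6 against 3, the smallest p possible) but did not pass the threshold after adjustment over the 3 classes (adjusted p = 0.0714). With equal numbers of ATAC-seq peaks it was 1.66 points (exact permutation test, adjusted p = 0.143). Against crypt-and-villus sites the same difference was 2.92 points (p = 0.381, adjusted p = 0.524 in the exact permutation test), and against villus-only sites 1.39 points (p = 0.524, adjusted p = 0.524).

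**Figure D4:**
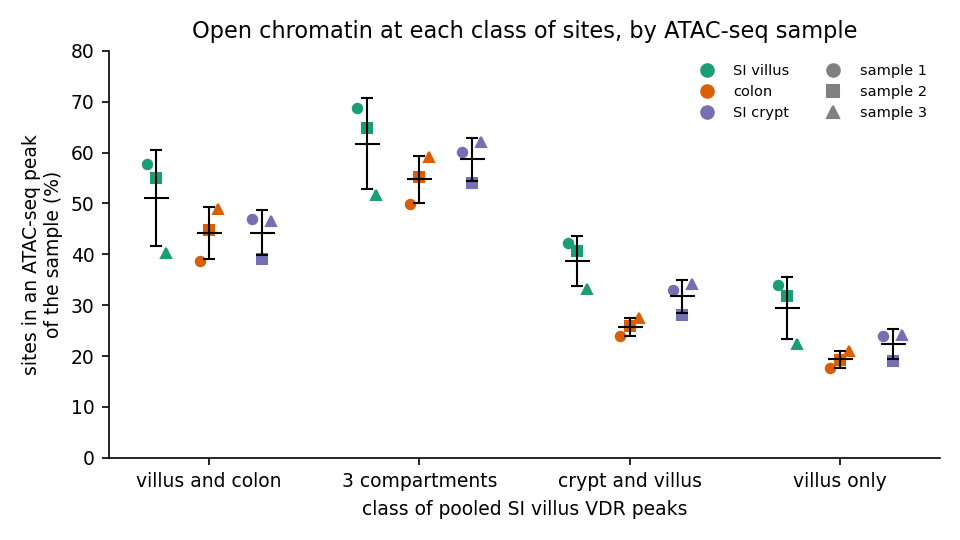
Percent of the sites of each class (x axis) that overlap an ATAC-seq peak of a single sample (y axis), in SI villus, colon and SI crypt; symbols are the 3 samples, and black marks the mean ± SD. The villus-and-colon sites lie at 38.7 to 57.8%, below the 3-compartment sites and above the other classes in every sample.

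Of the villus-and-colon sites, 29.5% lay within 1 kb of a start site of a protein-coding gene (27.9 to 31.2%), 31.5% in introns and 31.4% between genes. Promoters took 37.5% of 3-compartment, 23.6% of crypt-and-villus and 18.9% of villus-only sites. At promoters 90.5% of the villus-and-colon sites were open in SI villus, 83.8% in colon and 84.9% in SI crypt, and elsewhere 53.3%, 42.0% and 45.7%. Within 10 kb of a start site lay 1492 sites (53.1%, 51.3 to 55.0%), against 47.8% of all SI villus peaks. They were linked to 1402 of 22238 protein-coding genes, or 6.30%, and to 22.0% of the 6384 genes with any SI villus peak within 10 kb. Within 10 kb of a 3-compartment peak lay 659 sites (23.5%, 21.9 to 25.1%), against 18.4% of crypt-and-villus sites and 19.8% of villus-only sites. A link by distance does not show that VDR acts on the gene.

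The genes of TGF-beta signalling and growth arrest had sites at 7 of 18 members, or 46.7% of the 15 that had any SI villus peak. Over all genes with any SI villus peak this share was 22.0%. A 3-compartment peak lay within 10 kb of 10 of the 18. Smad7, which codes for the inhibitor of the TGF-beta receptor, had a site 1.03 kb upstream with a -log10 q of 9.55 in SI villus and 39.6 in colon. Colon samples 2, 3 and 4 gave 7.65, 6.42 and 25.1, and no SI villus sample called it. A second site in a coding exon had 6.38 in SI villus and 3.39 in colon, and the only sample that called it was SI crypt sample 1 (6.09). The site of Smad6, an inhibitor of BMP signals, had 11.01 in SI villus and 16.7 in colon, in an intron.

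Gadd45a, a growth arrest gene induced by DNA damage, had 2 sites, 1 with 9.67 in SI villus and 17.8 in colon and 1 with 3.47 and 5.51. Ccng2, which codes for cyclin G2, an inhibitor of the cell cycle, had a site 9.93 kb from its start with 6.49 in SI villus and 13.5 in colon. Skil, a repressor of SMAD proteins, had 2 SI villus peaks in a coding exon, 3.77 and 3.66, both on 1 colon peak of 8.09. Smad2 (4.16 in SI villus, 4.04 in colon), a signal carrier of the TGF-beta receptor, and Tgfbr2 (4.54 and 3.29), a subunit of that receptor, had promoter sites near the weak end of the range. Of the 10 sites of the list, 7 were higher in colon, as were 1550 of all 2809.

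Tight junctions seal the space between epithelial cells. Of 18 claudin and junction genes, 6 had a site, or 42.9% of the 14 with any SI villus peak, against 22.0% over all genes. More of them, 12 of 18, had a 3-compartment peak within 10 kb. The promoter of Tjp3, a scaffold of the tight junction, had a -log10 q of 19.5 in SI villus and 15.0 in colon. SI villus sample 2 alone called it (13.4). The promoter of Cgn, which codes for cingulin, had 12.7 in SI villus and 3.28 in colon, and was open in all 9 ATAC-seq samples. The claudins with a site were Cldn7 (12.0 in SI villus, 5.27 in colon), Cldn3 (5.79 and 2.48) and Cldn12 (4.41 and 4.68). The site linked to Cldn7 lay in a coding exon of the neighbouring Rai12. At 4 of these 5 named junction sites the value was higher in SI villus.

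Of 18 genes of the surface colonocyte and of colon transport, 5 had a site. These were 62.5% of the 8 with any SI villus peak, against 22.0% over all genes. A 3-compartment peak lay within 10 kb of 3 of the 18. The promoter of Slc9a3, the sodium and hydrogen exchanger of the apical membrane, had 7.49 in SI villus and 14.1 in colon. Colon samples 3 and 4 called it (6.46 and 5.95) and no SI villus or SI crypt sample did, and it was open in 8 of 9 ATAC-seq samples. Aqp8, a water channel of the colon surface, had an intronic site with 3.20 in SI villus and 10.2 in colon. Its pooled ATAC-seq peak had a -log10 q of 23.4 in SI villus, 17.7 in colon and 5.74 in SI crypt. Ceacam1, an adhesion molecule, had 9.22 in SI villus and 11.2 in colon. Hpgd, which degrades prostaglandins (11.8 and 4.23), and the membrane mucin Muc3 (12.1 and 1.78) were higher in SI villus.

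Genes of the enterocyte brush border had sites at 3 of 18, and all 18 had an SI villus peak of some class. The share was thus 16.7%, against 22.0% over all genes with any SI villus peak. A 3-compartment peak lay within 10 kb of 9 of the 18. Krt20, a keratin of differentiated cells, had 3 sites in its introns with 14.0, 9.22 and 8.72 in SI villus and 3.65, 4.88 and 8.82 in colon. The third of these overlapped ATAC-seq peaks in all 3 colon samples (19.2, 34.4 and 59.8), all 3 SI crypt samples (7.11, 6.43 and 4.76) and 1 SI villus sample (4.09). Cdhr2, a protocadherin that links microvilli, had 7.72 in SI villus and 1.77 in colon. Ezr is described above with its DR3.

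Transcription factors of the intestine had sites at 6 of 22, or 33.3% of the 18 with any SI villus peak, against 22.0% over all genes. A 3-compartment peak lay within 10 kb of 11 of the 22. Of the 6 with a site, 4 were Krüppel-like factors. Klf3 had 2 sites, the 1 with DR3 and an intronic 1 with 6.12 in SI villus and 11.4 in colon. Klf4, a factor of differentiated cells, had 6.96 in SI villus and 13.3 in colon, in a coding exon. Klf5, a factor of dividing crypt cells, had 6.92 and 3.35, and Klf6 had 5.89 and 6.98. Maf had a promoter site with 4.88 in SI villus and 4.29 in colon.

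The counts of this paragraph stand beside 6.30% of all protein-coding genes with a site, and 22.0% of those with any SI villus peak. Of the 18 genes of vitamin D action and calcium transport, 9 had an SI villus peak within 10 kb and 7 a 3-compartment peak. None had a villus-and-colon site there. This rests on the distance of 10 kb, since 8 sites farther away had one of 4 of these genes as the nearest. Of them 4 were nearest to Atp2b1, a calcium pump of the basolateral membrane, and the strongest lay 85.7 kb upstream with 8.65 in SI villus and 20.9 in colon. The stem cell and proliferation list had 1 of 18, or 50% of the 2 with any SI villus peak. The site was at the promoter of Sox9, a factor of crypt cells, with 4.43 in SI villus and 32.8 in colon. Its calls were in 2 colon samples (8.06 and 22.3), and it overlapped no ATAC-seq peak. Secretory lineage genes had 1 of 18, or 16.7% of the 6 with any SI villus peak. It was the goblet cell mucin Muc2 (4.32 in SI villus, 5.70 in colon). Xenobiotic genes had 1 of 20, or 6.25% of the 16 with any SI villus peak, namely Cyp3a13 (8.53 and 10.0). Lipid genes had 1 of 20, also 6.25% of 16. It was the promoter of Pdk4 (4.90 and 2.77), a kinase that spares glucose. The list of AP-1, NF-kappaB and hypoxia genes had 1 of 18, or 7.69% of the 13 with any SI villus peak. It was Fosl2 (6.42 and 5.33). Among genes that mark other cells of the mucosa, none of 17 immune genes and none of 14 stromal and endothelial genes had a site, while 4 and 3 of them had an SI villus peak.

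Of the genes that the study's text names for VDR binding, Klf5 was linked to a villus-and-colon site, in an intron, and colon sample 4 alone called it (2.52).

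**Figure D5:**
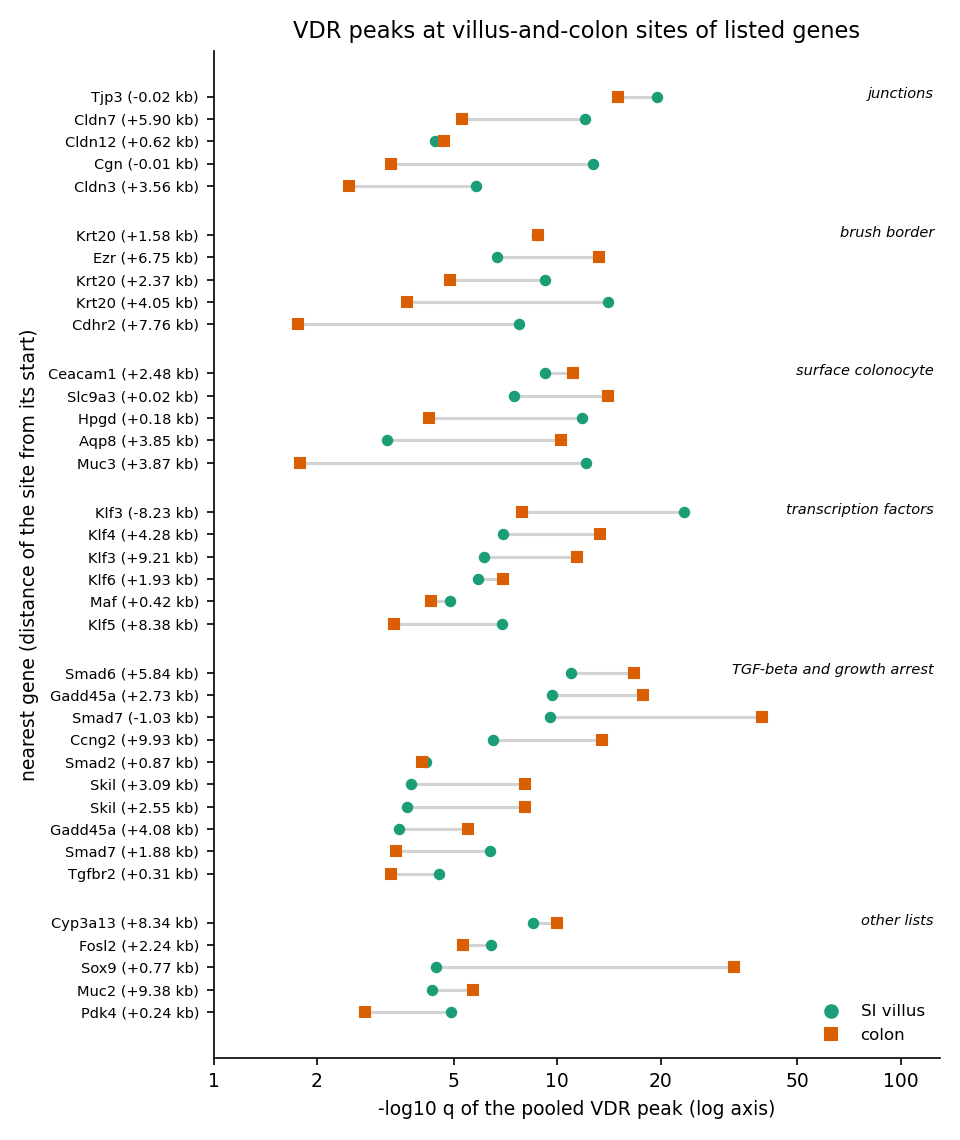
Pooled VDR -log10 q (x axis, log scale) in SI villus (circles) and colon (squares) at villus-and-colon sites within 10 kb of the start of the listed genes named here (y axis, with the distance from the start site), grouped by list. At 4 of the 5 junction sites shown SI villus is higher, and at 7 of 10 sites of TGF-beta and growth arrest genes colon is higher.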

How the data were processed

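VDR ChIP-seq (12 samples) and ATAC-seq (9 samples) were analysed. The authors aligned reads to mm9 (Bowtie2 2.2.6), merged the samples of each compartment and called peaks with MACS2 (2.1.0.20150731), without an input library, at a q-value of 0.05. The deposited tables give, per peak, a -log10 q and a fold enrichment over the local background, and the deposited intervals (-log10 q and fold were matched to them) are these peaks moved onto their summits and filtered, by the methods against the ENCODE blacklist. These values depend on the depth of each list. Depths were read from the file headers. The sets of differential sites hold the authors' own comparisons and were not used.

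Members and gene lists were chosen with earlier results of these data known. Peaks of the pooled SI villus list were classed by overlap (1 bp) with the colon and SI crypt lists. Shares of sites in ATAC-seq peaks were compared over samples with two-sided exact permutation tests and Benjamini-Hochberg adjustment at 0.05, in Python 3.11.15 with scipy 1.17.1, tested on simulated data. Nothing says that the samples came from separate mice, so p-values measure the spread between these samples. Motifs were fixed letters, searched on both strands (16 motifs, 200 bp). Shares carry 95% Wilson intervals. Genes were the nearest protein-coding start sites of GENCODE vM1, linked within 10 kb, and 237 of 238 list genes were found, 2 by an older symbol. Some genes of these lists are counted but not reported here by name. The named sites were the 10 strongest in SI villus, in colon and with DR3, those called in 3 SI villus and 3 colon samples, and those linked to a listed gene or to a gene the paper names. Sequences are from the mm9 (NCBIM37) genome. Alternatives varied the overlap, thresholds, lists, motif windows and distances, and left out each sample.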

Additional observations from a re-analysis of the deposited data

Results flagged for a closer look

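SI crypt sample 1 stood apart from the other 3 SI crypt samples. It called 15.8% of the villus-and-colon sites, against 1.21%, 0.0356% and 0.392% in SI crypt samples 2 to 4. The gap is large for 4 samples by Dixon's criterion, which chance meets in about 1 of 20 groups, but it is given as a description, since these samples went into the pooled list that chose the sites. It is not particular to them: the sample called 59.4% of crypt-and-villus sites and 13.0% of villus-only sites, and the other 3 called 3.75 to 8.28% and 0 to 0.287%. The same sample kept 3100376 of 10859762 fragments after duplicates were removed, the fewest of the 12 VDR libraries, and gave 13382 peaks, the most. The part of either in its calls was not tested. Without the sites that any SI crypt sample called, 2324 of 2809 remained, and SI villus and colon then exceeded SI crypt in open chromatin by 3.55 points (exact permutation test, p = 0.548).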

How the results depend on the processing

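The number of sites depended on the strength and support asked for. It was 1255 with a -log10 q of 5 or more in SI villus and colon, 686 with a call in at least 1 sample of each, 1323 with equal numbers of the strongest peaks and, in a count added after seeing the data, 519 with no SI crypt call as well. It stayed within 1.5 times 2809 under the other 5 rules, 2059 to 2871, including MACS2's own intervals, also added later. DR3 was at 1.07% of sites in 100 bp and at 8.47% with 1 mismatch, and 33.8% of sites had a start site within 2 kb and 86.4% within 50 kb. The difference between colon and SI crypt in open chromatin, near 0, turned to 5.83 points with peak midpoints, 3.92 with an ATAC-seq -log10 q of 5 or more, 9.47 with equal numbers of ATAC-seq peaks and 2.28 at sites called in single samples. It ranged from -2.63 to 2.62 when each sample was left out, and was 2.62 without colon sample 1, 1.30 without SI crypt sample 1 and 1.09 without SI crypt sample 3. SI villus minus colon turned to -4.40 points with equal numbers of ATAC-seq peaks. The cause was not tested. The 3 class differences kept their direction and stayed past the threshold in every alternative run for them except the block of the next paragraph, and leaving out each sample gave adjusted p = 0.00781 in the exact sign-flip permutation test throughout.

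Deviations of same-numbered ATAC-seq samples correlated at -0.061 to 0.040 over 9 pairs, and those of other pairs at -0.073 to 0.090. These correlations cannot show whether samples shared a mouse, since each deviation is taken from a mean of only 3 samples. With the replicate number as a block, the class differences were -12.0, 14.4 and 22.7 points with p = 0.25 each, the smallest that 3 blocks allow in an exact permutation test. A site that is missing from a list may lie below the depth of that list, and the SI crypt list was the shallowest.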

Other observations

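At 10 genes, 3 or more villus-and-colon sites lay within 10 kb of the start site, a list drawn up after the values were seen. Mcl1, which codes for a protein that prevents apoptosis, had the most, 4 sites at 3.48 to 7.37 kb, with a -log10 q of 5.04 to 6.44 in SI villus and 4.31 to 11.6 in colon. Of these, 3 overlapped a pooled ATAC-seq peak of SI villus, none one of colon and 2 one of SI crypt, and Mcl1 also had 1 3-compartment peak. Areg, which codes for the growth factor amphiregulin, had 3 sites, with 9.04 to 11.2 in SI villus and 2.73 to 9.52 in colon, and no 3-compartment peak within 10 kb. The 3 sites of Gprc5a, an orphan receptor, had 2.17 to 7.18 in SI villus and 17.7 to 23.9 in colon. St14, the membrane protease matriptase, had 3 sites with 2.36 to 8.11 in SI villus and 4.10 to 27.8 in colon. Anxa2, Ccrn4l, Krt20, Tmc5 and Gm17334 had 3 each.

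Among the DR3 windows of the named sites, those near Rps12-ps2 and Aktip shared 42 of 55 bases when read in the direction of the motif, and the next most alike pair 32. The median over 66 pairs was 21.5 bases. No repeat annotation was used here.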
